A study of Camellia sinensis and Camellia sinensis var. assamica with 18 samples.

Results

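The C-repeat binding factors of the tea plant (Camellia sinensis) followed here were CsCBF1 (locus CSS023229), CsCBF2 (CSS018717) and CsCBF3 (CSS002244), 3 of the 41021 loci in the expression table. They were taken by name, as the loci that carry these names in the study's list of quantitative PCR primers. The study picked its CBF genes from this same transcriptome, so that their rise in the cold is no independent evidence. The table described CsCBF1 and CsCBF3 as CBF-like protein 1 and CsCBF2 as CBF-like protein. It gave no chromosome, start or end for any of them.

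CBF proteins, also called DREB1, are AP2/ERF transcription factors that bind the C-repeat element in promoters of cold-regulated (COR) genes. In Arabidopsis their genes are induced quickly by chilling, with ICE1-type bHLH and CAMTA proteins as activators and PIF and EIN3 proteins as repressors. The COR genes they control encode dehydrins and late embryogenesis abundant (LEA) proteins, which protect membranes and proteins, and the rise of these genes accompanies the gain of freezing tolerance during cold acclimation.

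RNA-seq libraries were made from tissue culture seedlings of the cold-tolerant cultivar Shuchazao (SCZ) and the cold-sensitive cultivar Yinghong 9 (YH9, C. sinensis var. assamica), with leaves named as the material in the study's methods. Non-acclimated (NA) seedlings were taken at day 0 from 25 °C by day and 20 °C by night. Cold-acclimated (CA) seedlings were taken at day 14, after 7 days at 10 °C and 4 °C followed by 7 days at 4 °C and 0 °C. De-acclimated (DA) seedlings were taken at day 21, after 7 days back at 25 °C and 20 °C. Each of the 6 groups held 3 replicates, which gave 18 libraries, and no group received any agent or carried any introduced allele. Each cultivar was a single genotype, and the hour of the day at which seedlings were taken is not given in the sources used here, so that an effect of day, culture age or daily rhythm cannot be told apart from that of temperature.

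Total estimated counts per library ranged from 47291392 to 78305612, and replicates of a group correlated at Pearson's r of 0.877 to 0.971 across loci. Markers of leaf mesophyll (photosystem, Rubisco and related loci) were abundant in NA libraries, with a summed level of 37488 to 47188 FPKM in SCZ_NA and 32224 to 45312 FPKM in YH9_NA. FPKM are fragment counts scaled to transcript length and to the fragments mapped in the library. The same sum was 2730 to 10079 FPKM in SCZ_CA and 7747 to 9209 FPKM in YH9_CA, and 29 of the 34 tested mesophyll loci fell in each cultivar. Over all loci, 15% rose and 19.1% fell in SCZ, and 11.7% rose and 14.2% fell in YH9. The list of root markers held mostly CASP-like proteins, and whether these are particular to root was not tested. Its summed level was 377 to 604 FPKM in SCZ_NA and 113 to 184 FPKM in SCZ_CA. The corresponding YH9 sums were 475 to 682 FPKM in YH9_NA and 195 to 214 FPKM in YH9_CA. Of 8 tested xylem and secondary wall loci, 5 fell in SCZ and 1 in YH9, with sums of 27.9 to 203 FPKM in SCZ_NA and 2.01 to 16.4 FPKM in SCZ_CA, and of 31.9 to 254 FPKM in YH9_NA and 10.7 to 61.9 FPKM in YH9_CA. Of 36 tested loci of dividing cells, 4 rose and 11 fell in SCZ, and 9 rose and 2 fell in YH9. Their sums were 1709 to 1938 FPKM in SCZ_NA and 1396 to 1765 FPKM in SCZ_CA, and 1490 to 2106 FPKM in YH9_NA and 1481 to 2129 FPKM in YH9_CA. In bulk tissue, fewer cells of a type and less RNA per cell cannot be told apart, and the part of these shifts in the results below was not tested.

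The primers that tie each name to a gene are printed because the names CsCBF1 to CsCBF3 rest on them. They are written 5′ to 3′, with capitals marking a leading ATG, the letters of a start codon.
CsCBF1 forward: aactgcgactgagacgacaatgc
CsCBF1 reverse: cagagtgaggcggtggaggag
CsCBF2 forward: ATGgatttggacatggaaatc
CsCBF2 reverse: ccagcaccactgccacaa
CsCBF3 forward: ATGgatttcaacaaagaaacg
CsCBF3 reverse: ccaacaaaacctcgtcgtca
The forward primers of CsCBF2 and CsCBF3 both open with ATG and were identical at 15 of 21 positions, including the first 8 bases. The forward primer of CsCBF1 holds no leading ATG.

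All 3 CBF genes were low in NA seedlings of both cultivars, high at CA and low again at DA. CsCBF2 was the most abundant of them at CA in every library. Among the 3 genes, CsCBF2 made up nearly all of the summed level in YH9_CA, whereas SCZ_CA held more CsCBF1 and, in mean, more CsCBF3. A further CBF locus, CSS018720, was the most abundant of the family in SCZ_CA. Of the family sum that includes it, CsCBF2 alone made up 76.4 ± 2.57% in YH9_CA and 28.9 ± 6.17% in SCZ_CA (SD, n = 3). How reads were split between these loci is not known. All 3 passed the level filter (at least 1 FPKM in at least 3 libraries, 29019 loci). CsCBF2 was above 1 FPKM in all 18 libraries, whereas CsCBF1 passed only through its cold libraries, so that its difference between CA and the warm groups was in part built into the filter.

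**Figure D1:**
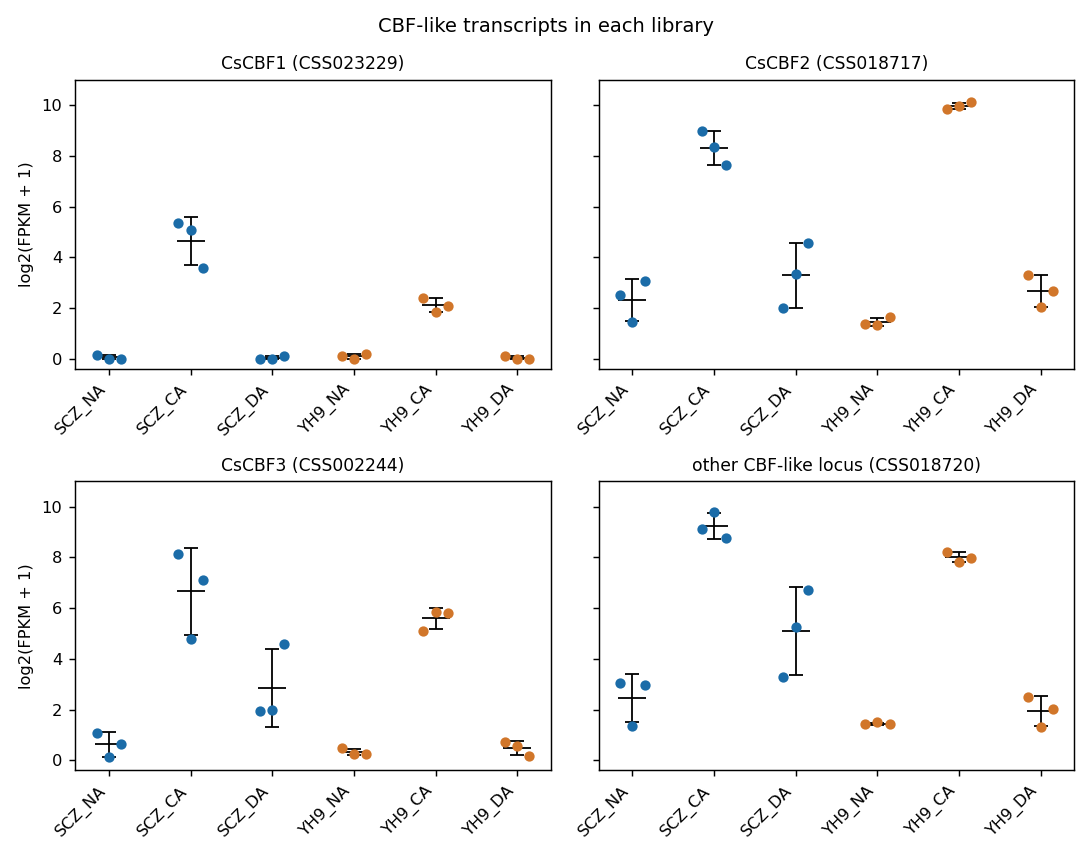
Level of CsCBF1, CsCBF2, CsCBF3 and the neighbouring-number locus CSS018720 in each library, as log2(FPKM + 1), by group (SCZ blue, YH9 orange). Points are libraries and bars are the mean ± SD of the log values (n = 3). In every panel all 6 CA libraries lie above all 12 NA and DA libraries.

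CsCBF1 was at 39.3, 32.4 and 10.8 FPKM in SCZ_CA replicates 1 to 3. It was at 4.28, 2.61 and 3.20 FPKM in YH9_CA. All SCZ_CA libraries lay above all YH9_CA libraries, and the group means were 27.5 ± 14.8 FPKM and 3.36 ± 0.844 FPKM (SD, n = 3).

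In the warm groups CsCBF1 was barely counted. It was listed at 0 in 7 of the 12 NA and DA libraries, and the highest count among the others was 10, in YH9_NA replicate 3. A count of 0 allows up to 3 counts at 95% if counts are independent, which these estimated counts may not be. The SCZ_NA libraries held 7, 0 and 0 counts and the SCZ_CA libraries 3092, 2066 and 981. The corresponding counts were 5, 0 and 10 in YH9_NA and 230, 182 and 193 in YH9_CA. The SCZ_DA libraries held 0, 0 and 5 counts and the YH9_DA libraries 6, 0 and 0. Every cold library was thus above every warm library, and no fold change is given between warm groups, whose mean counts were at most 5.

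CsCBF2 was at 497, 327 and 198 FPKM in SCZ_CA and at 930, 997 and 1101 FPKM in YH9_CA. All YH9_CA libraries lay above all SCZ_CA libraries, the opposite order to CsCBF1. The YH9_CA mean of 1009 ± 85.9 FPKM ranked 33 from the top among the 29019 loci, and the SCZ_CA mean of 341 ± 150 FPKM ranked 147 (SD, n = 3).

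In the warm groups CsCBF2 was low but present in every library. It was at 4.67, 1.70 and 7.34 FPKM in SCZ_NA and at 1.57, 1.52 and 2.1 FPKM in YH9_NA. It was at 2.99, 9.02 and 22.5 FPKM in SCZ_DA and at 8.80, 3.10 and 5.32 FPKM in YH9_DA. SCZ_DA replicate 3 was the highest of the 12 warm libraries and lay well under the lowest cold library.

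CsCBF3 was at 278, 26.2 and 136 FPKM in SCZ_CA and at 33.8, 57.1 and 55.1 FPKM in YH9_CA. The 2 cultivars overlapped, because SCZ_CA replicate 2 lay under every YH9_CA library. The means were 147 ± 126 FPKM in SCZ_CA and 48.7 ± 13.0 FPKM in YH9_CA (SD, n = 3). The highest SCZ_CA library exceeded the lowest 10.6-fold, compared with 1.69-fold in YH9_CA.

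In the warm groups CsCBF3 was at 1.14, 0.10 and 0.567 FPKM in SCZ_NA and at 0.398, 0.190 and 0.190 FPKM in YH9_NA. It was at 2.84, 2.96 and 23.4 FPKM in SCZ_DA and at 0.656, 0.497 and 0.129 FPKM in YH9_DA. The 3 SCZ_DA libraries were the highest of the warm libraries, and replicate 3 was close to the lowest cold library, SCZ_CA replicate 2.

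The SCZ_CA libraries spread more than those of YH9_CA for each gene. The ratio of the highest to the lowest library was 3.63 for CsCBF1 and 2.51 for CsCBF2 in SCZ_CA, against 1.64 and 1.18 in YH9_CA. The libraries did not spread together: replicate 3 was lowest for CsCBF1 and CsCBF2, and replicate 2 was lowest for CsCBF3.

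The order of the group means differed between the genes. For CsCBF2 it was YH9_CA, SCZ_CA, SCZ_DA, YH9_DA, SCZ_NA and YH9_NA. For CsCBF3 it was SCZ_CA, YH9_CA, SCZ_DA, SCZ_NA, YH9_DA and YH9_NA. Among neighbours in these orders, YH9_CA and SCZ_CA did not overlap for CsCBF2, the cold groups did overlap for CsCBF3, and of the warm groups only the neighbouring SCZ_DA and SCZ_NA of CsCBF3 did not overlap. For CsCBF1 SCZ_CA was highest and YH9_CA next, and the warm groups could not be ordered at their counts.

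Cold acclimation was tested as CA vs. NA within each cultivar, with edgeR's quasi-likelihood test on the estimated counts. A locus was called at a Benjamini-Hochberg adjusted p under 0.05 over all 29019 loci and at least a 2-fold change. All 3 genes were called higher in SCZ_CA vs. SCZ_NA, where 15% of all loci were called higher, and all 3 in YH9_CA vs. YH9_NA, where 11.7% were. Of all loci, 19.1% were called lower in SCZ and 14.2% in YH9.

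In SCZ the log2 fold change was 6.29 (SE 0.75, adjusted p = 1.86e-05) for CsCBF2 and 7.93 (SE 1.23, adjusted p = 0.000152) for CsCBF3. For CsCBF1 the fitted value was 9.66 (SE 1.41, adjusted p = 9.39e-05). It rested on 7 counts in all in SCZ_NA and depends on the prior count, so that it sets no bound.

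In YH9 the log2 fold change was 9.16 (SE 0.85, adjusted p = 4.47e-06) for CsCBF2, the largest of the 3 in this cultivar. It was 7.46 (SE 1.23, adjusted p = 0.000389) for CsCBF3 and 5.45 (SE 1.19, adjusted p = 0.00281) for CsCBF1, the latter against 15 counts in all in YH9_NA. Cold and non-acclimated libraries did not overlap for any of the 3 genes in either cultivar, as was the case for 42.2% of all loci in SCZ and 54.2% in YH9.

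De-acclimation was tested as DA vs. CA. All 3 genes fell in both cultivars, where 13.5% of all loci fell in SCZ and 10.4% in YH9. In SCZ the log2 fold change was -10.08 (SE 1.45, adjusted p = 0.000113) for CsCBF1, -5.03 (SE 0.70, adjusted p = 9.2e-05) for CsCBF2 and -4.05 (SE 1.01, adjusted p = 0.00605) for CsCBF3. In YH9 it was -6.88 (SE 1.32, adjusted p = 0.00133), -7.61 (SE 0.79, adjusted p = 1.71e-05) and -6.92 (SE 1.19, adjusted p = 0.000606), in the same order. The CsCBF1 values rested on 5 counts in all in SCZ_DA and 6 in YH9_DA, and set no bound. No DA library overlapped a CA library for any of the 3 genes, as for 42.2% of loci in SCZ and 59.4% in YH9. These DA vs. CA comparisons share their CA libraries with the CA vs. NA comparisons.

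**Figure D2:**
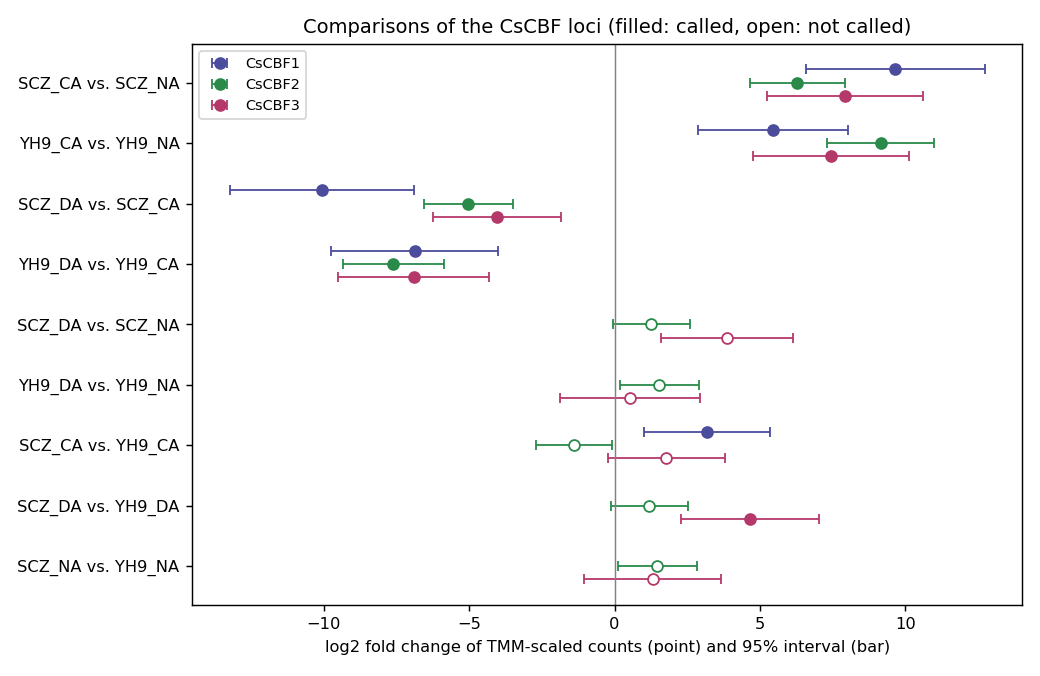
Log2 fold change of each CBF gene in 9 comparisons, from edgeR, with its 95% interval as a horizontal line; filled points were called. CsCBF1 is left out of the 4 comparisons between warm groups. All CA vs. NA and DA vs. CA intervals lie clear of 0, and no DA vs. NA value is called, with CsCBF3 in SCZ at 3.88 and CsCBF2 in YH9 at 1.55 having intervals above 0.

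Whether the genes went all the way back after 7 warm days was tested as DA vs. NA. None of the 3 was called in either cultivar, where 3.03% of all loci were called in SCZ and 0.376% in YH9. At an unadjusted p under 0.05 edgeR gave 1 member in each cultivar, and DESeq2 called 1 member in SCZ and 0 in YH9. limma called 0 in both on log2(FPKM + 1), and 1 in SCZ and 0 in YH9 on log2(FPKM + 0.1).

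CsCBF3 in SCZ was the nearest to a call. Its DA libraries all lay above its NA libraries, in a comparison where 21.9% of loci did not overlap. The log2 fold change was 3.88 (SE 1.04, 95% interval 1.61 to 6.15, adjusted p = 0.0503). It was called under 5 other settings and with 5 single libraries left out. Without SCZ_DA replicate 3 it was 2.08 (adjusted p = 0.313), and with DESeq2 3.84 (adjusted p = 0.000872). In YH9 the value for CsCBF3 was 0.54 (SE 1.11, adjusted p = 0.948) and the groups overlapped.

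CsCBF2 was in mean above NA at DA in both cultivars without passing the test. The log2 fold change was 1.27 (SE 0.61, 95% interval -0.06 to 2.60, adjusted p = 0.264) in SCZ, where the groups overlapped. It was 1.55 (SE 0.62, 95% interval 0.18 to 2.91, adjusted p = 0.431) in YH9, where all DA libraries lay above all NA libraries, and the groups of 31.5% of loci did not overlap.

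The cultivars were compared under cold as SCZ_CA vs. YH9_CA, where 27.3% of all loci were called. CsCBF1 was called higher in SCZ_CA, 9.11-fold, at a log2 fold change of 3.19 (SE 1.0, 95% interval 1.02 to 5.36, adjusted p = 0.0227). DESeq2 did not call it (3.20, adjusted p = 0.153). The edgeR call was also lost on leaving out SCZ_CA replicate 1, at 2.90 and an adjusted p of 0.0590, or any YH9_CA library, at 3.04 to 3.41 and adjusted p of 0.0548 to 0.0808.

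CsCBF2 went the other way, at -1.39 (SE 0.60, 95% interval -2.71 to -0.07, adjusted p = 0.0898), and was not called. Its groups did not overlap, as for 43.5% of loci. It was called by limma on log2(FPKM + 1), at -1.66 (adjusted p = 0.0265), and when only these groups were fitted, at -1.38 (adjusted p = 0.0223). It was also called without SCZ_DA replicate 1 (adjusted p = 0.0465) or replicate 3 (adjusted p = 0.0470). CsCBF3 was at 1.78 (SE 0.92, 95% interval -0.22 to 3.79, adjusted p = 0.151), with overlapping groups.

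In the warm, SCZ_NA vs. YH9_NA gave no call for the 3 genes, where 19.2% of all loci were called. At an unadjusted p under 0.05 edgeR gave 1 member, and DESeq2 and both limma fits called 0. The log2 fold change was 1.47 (SE 0.62, adjusted p = 0.115; called at 1.9 without SCZ_NA replicate 2, adjusted p = 0.0374) for CsCBF2 and 1.31 (SE 1.09, adjusted p = 0.468) for CsCBF3, both with overlapping groups.

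After de-acclimation CsCBF3 was higher in SCZ_DA than in YH9_DA, 25.1-fold, at a log2 fold change of 4.65 (SE 1.09, 95% interval 2.28 to 7.02, adjusted p = 0.00445). In that comparison 24% of all loci were called and 52.5% did not overlap. Without SCZ_DA replicate 3 the value was 2.85 (adjusted p = 0.0349) and still called. CsCBF2 was at 1.19 (SE 0.61, adjusted p = 0.163) there, with overlapping groups, and was called without SCZ_DA replicate 1, at 1.65 (adjusted p = 0.0397).

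The difference between the cultivars in the cold response itself was tested as an interaction (SCZ minus YH9 in CA vs. NA). It was 4.21 (SE 1.70, adjusted p = 0.193) for CsCBF1, -2.86 (SE 0.87, adjusted p = 0.0919) for CsCBF2 and 0.47 (SE 1.44, adjusted p = 0.905) for CsCBF3. The CsCBF1 value rested on 7 counts in all in SCZ_NA and 15 in YH9_NA, and sets no bound. None of the 3 genes was called by edgeR in this interaction, where 2.52% of all loci were called. At an unadjusted p under 0.05 edgeR gave 2 members, and DESeq2 and both limma fits called 1 each.

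In DA vs. CA the interaction was -3.19 (SE 2.01, adjusted p = 0.462) for CsCBF1, 2.58 (SE 0.86, adjusted p = 0.141) for CsCBF2 and 2.87 (SE 1.34, adjusted p = 0.302) for CsCBF3. The CsCBF1 value rested on 5 counts in all in SCZ_DA and 6 in YH9_DA, and sets no bound. In this interaction 1.72% of all loci were called, and none of the 3 genes. At an unadjusted p under 0.05 edgeR gave 2 members, and DESeq2 and both limma fits called 1 each. Among these interactions, the DESeq2 call was CsCBF2 and the limma call CsCBF1.

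The make-up of the CBF signal was compared within each cold library, as the share of each gene in the summed FPKM of the 3. CsCBF2 made up 67.7 ± 14.9% in SCZ_CA and 95.1 ± 0.873% in YH9_CA (SD, n = 3). CsCBF3 made up 26.8 ± 17.5% in SCZ_CA and 4.55 ± 0.976% in YH9_CA. CsCBF1 made up 5.45 ± 2.68% in SCZ_CA and 0.322 ± 0.105% in YH9_CA.

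The summed level of the 3 genes was 814, 386 and 345 FPKM in SCZ_CA and 968, 1057 and 1159 FPKM in YH9_CA, with means of 515 ± 260 and 1061 ± 95.5 FPKM. The cultivars did not overlap in this sum or in any of the 3 shares. A two-sided exact permutation test gave p = 0.1 for each of these 4 measures (0.1 after Benjamini-Hochberg adjustment), the smallest value that 3 libraries against 3 allow.

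Another CBF locus, CSS018720, carries the same description as CsCBF2 and a number close to it, and no primer of the list was assigned to it. It was at 563, 898 and 439 FPKM in SCZ_CA and at 299, 228 and 250 FPKM in YH9_CA. The SCZ_CA libraries all lay above the YH9_CA libraries, opposite to CsCBF2, with a log2 fold change of 1.49 for SCZ_CA vs. YH9_CA (adjusted p = 0.112, not called).

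CSS018720 rose in the cold in both cultivars, at log2 fold changes of 6.96 in SCZ (SE 0.88, adjusted p = 3.04e-05) and 7.17 in YH9 (SE 0.90, adjusted p = 4.82e-05). It fell by 3.81 in SCZ_DA vs. SCZ_CA (adjusted p = 0.00131) and by 6.55 in YH9_DA vs. YH9_CA (adjusted p = 8.86e-05) on the log2 scale. At DA it was at 8.83, 37.7 and 105 FPKM in SCZ and at 4.59, 1.48 and 3.12 FPKM in YH9. All SCZ_DA libraries lay above all YH9_DA libraries, and CSS018720 was called higher in SCZ_DA vs. YH9_DA at 4.24 (adjusted p = 0.000816), or 3.05 without SCZ_DA replicate 3.

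In SCZ_DA vs. SCZ_NA, CSS018720 was the 1 called CBF locus, at 3.16 (SE 0.74, adjusted p = 0.0320), with NA libraries at 7.29, 1.58 and 6.82 FPKM. It was no longer called on leaving out SCZ_DA replicate 3, at 1.97 and an adjusted p of 0.181, or SCZ_NA replicate 2, at 2.69 and 0.0884, or SCZ_NA replicate 3, at 3.26 and 0.0849. Fitting only these groups gave 3.18 and an adjusted p of 0.236. In YH9_DA vs. YH9_NA it was at 0.62 (adjusted p = 0.870).

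The ratio of CsCBF2 to CSS018720 in FPKM separated the cultivars in the cold. It was 0.566 ± 0.277 in SCZ_CA, with a range of 0.365 to 0.882, and 3.96 ± 0.735 in YH9_CA, with a range of 3.12 to 4.41 (SD, n = 3). The ratio was close to 1 in NA seedlings of both, with means of 0.930 in SCZ_NA and 0.997 in YH9_NA. At DA it was 0.264 in SCZ and 1.91 in YH9.

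CsCBF2 and CSS018720 share a description, and how alike their sequences are was not measured. How the authors' quantification would split reads that match both is not known, so the division between them is uncertain in either cultivar. The study mapped both cultivars to the same tea reference genome. Whether reads of YH9, a var. assamica, map to the CBF loci as fully as those of SCZ was not tested. This bears on each comparison of the cultivars. CSS018720 made up 55.6 ± 14.53% of the summed level of the 4 expressed loci in SCZ_CA and 19.7 ± 3.36% in YH9_CA (SD, n = 3). That sum was 1377, 1284 and 783 FPKM in SCZ_CA and 1267, 1285 and 1409 FPKM in YH9_CA. These groups overlapped, unlike the sums over CsCBF1, CsCBF2 and CsCBF3. The last locus of the family, CSS038056, described as C-repeat binding factor 5, was above 0 in 3 libraries and reached 0.0883 FPKM at most, and was not tested.

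**Figure D3:**
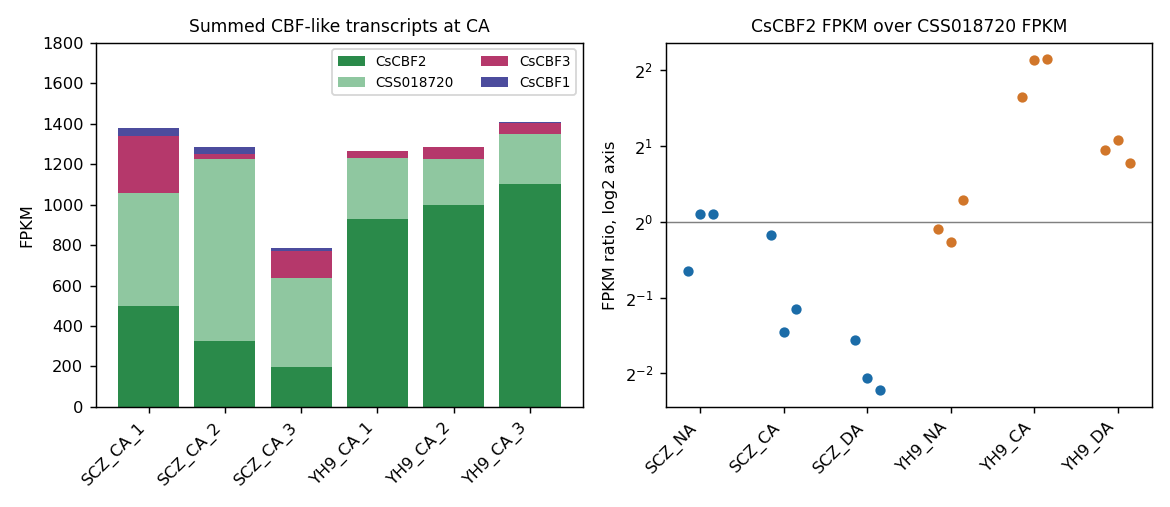
Left, stacked FPKM of the 4 expressed CBF loci in the 6 CA libraries. Right, the ratio of CsCBF2 to CSS018720 in FPKM in each of the 18 libraries, on a log2 axis. CsCBF2 takes most of the bar in YH9_CA, and CSS018720 the largest part in SCZ_CA, with ratios of 0.365 to 0.882 there.

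Of the 3 ICE1-type bHLH loci, the activators that bind CBF promoters, 0 were called in CA vs. NA in either cultivar by edgeR. At an unadjusted p under 0.05 edgeR gave 1 locus in SCZ and 0 in YH9, DESeq2 called 0 in both, and each limma fit called 1 in SCZ and 0 in YH9. Beside the counts of this and the following lists, 15% of all loci were called higher and 19.1% lower in SCZ, and 11.7% and 14.2% in YH9. Of 6 CAMTA loci, calmodulin-binding activators of CBF2 in Arabidopsis, 0 were called higher and 2 lower in each cultivar. They were CSS041502, at -1.18 in SCZ and -1.49 in YH9, and CSS009634, at -1.05 and -1.02 on the log2 scale. In SCZ, CSS041502 was at -0.98 without SCZ_CA replicate 3 and CSS009634 at -0.81 without SCZ_CA replicate 2, under the 2-fold limit. CSS009634 was also under it or not called in SCZ without SCZ_NA replicate 1 (-0.99) and with only the groups compared (adjusted p = 0.0739). In YH9 it was at -0.96 without YH9_CA replicate 2 and at -0.99 without YH9_NA replicate 3 or with library totals, and both limma fits were under the limit.

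Among repressors of CBF in Arabidopsis, 1 of 3 PIF loci was called higher in SCZ and 0 in YH9. It was the PIF3 locus CSS003639, at a log2 fold change of 1.60 in SCZ and 0.75 in YH9. Of 4 tested EIN3/EIL loci, ethylene-signalling factors, 1 was called higher in SCZ and 2 in YH9. CSS049867 was at 1.05 in SCZ and 1.04 in YH9, and fell under the 2-fold limit without SCZ_CA or SCZ_NA replicate 1 in SCZ (0.93 and 0.80) and without YH9_NA replicate 3 in YH9 (0.96). The ETHYLENE INSENSITIVE 3-like 1 locus CSS032053 was at 0.66 in SCZ and 1.43 in YH9. No PIF or EIN3/EIL locus was called in SCZ minus YH9 in CA vs. NA, with CSS003639 at 0.85 (adjusted p = 0.138).

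The 7 loci of the HOS1, SIZ1 and OST1 list, which modify or degrade ICE1 in Arabidopsis, gave 1 higher and 1 lower call in SCZ and 2 higher in YH9. The SCZ counts lay near the shares over all loci. The SIZ1 locus CSS047705 was at 1.01 in SCZ and 1.12 in YH9, just over 2-fold, and was at 0.63 in SCZ without SCZ_CA replicate 2 and 0.92 without SCZ_NA replicate 1. CSS045180 fell by 1.25 in SCZ on the log2 scale. Of 3 MAP kinase loci, both MPK3 loci rose in both cultivars. MPK3 destabilises ICE1 in Arabidopsis. CSS033492 was at 3.36 in SCZ, or 1.67 without SCZ_CA replicate 2, and at 2.80 in YH9, and CSS032145 at 1.45 and 2.92, with no call in SCZ when only these groups were fitted (1.49, adjusted p = 0.0618). The MPK4 locus CSS051995 was called lower in SCZ at -1.41, and was at -0.88 in YH9 without a call. No MAP kinase locus of the list was called in SCZ minus YH9 in CA vs. NA.

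Circadian clock proteins bind CBF promoters in Arabidopsis, and 10 of 12 listed loci were tested. Of these, 3 rose and 1 fell in SCZ, and 4 rose and 2 fell in YH9. The APRR5 locus CSS050021, a pseudo-response regulator that represses the clock's morning genes, rose by 5.29 in SCZ (SE 0.55) and 4.86 in YH9 (SE 0.54) on the log2 scale. REVEILLE 6 locus CSS037197 rose by 2.09 and 2.15. Another REVEILLE 6 locus, CSS033820, was called lower in YH9. It was under the 2-fold limit with library totals (-0.99) or without YH9_NA replicate 2 (-0.89), and in both limma fits. The LHY locus CSS036792, a morning clock gene, was called lower in YH9 at -1.9 (adjusted p = 0.000265), and was at -0.30 (adjusted p = 0.432) in SCZ. No tested clock locus was called in SCZ minus YH9 in CA vs. NA.

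Of 5 ZAT loci, zinc finger factors of the cold response, 3 were called higher in SCZ and 4 in YH9, and 0 lower. ZAT10 and ZAT12 belong to the first wave of cold-induced factors in Arabidopsis. ZAT10-type loci CSS041376 and CSS007267 were at log2 fold changes of 3.74 and 5.56 in SCZ and 4.11 and 5.18 in YH9. CSS031618 was at 2.26 in YH9, a call lost under 9 alternatives and, for example, at 1.45 without YH9_CA replicate 2, and at 0.22 in SCZ without a call. No ZAT locus was called in SCZ minus YH9 in CA vs. NA.

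Of 7 tested DREB loci outside the CBF family, 2 rose and 2 fell in SCZ, and 4 rose and 2 fell in YH9. DREB factors bind the same core element as CBF and are mostly tied to drought and salt. DREB2 locus CSS032435 was at 2.91 in SCZ and 1.61 in YH9, the YH9 call being lost without YH9_CA replicate 2 or 3 or YH9_NA replicate 2 or 3. DREB3 locus CSS028185 was at 2.09 and 1.46. Another DREB3 locus, CSS008415, was called lower in YH9 at -1.39, and was at -0.81 in SCZ without a call. No DREB locus of this list was called in SCZ minus YH9 in CA vs. NA. The log2 median over the 7 loci was 1.09 in SCZ and 1.46 in YH9, against -0.06 and -0.01 over all tested loci and 7.44 and 7.32 over the 4 tested CBF loci.

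**Figure D4:**
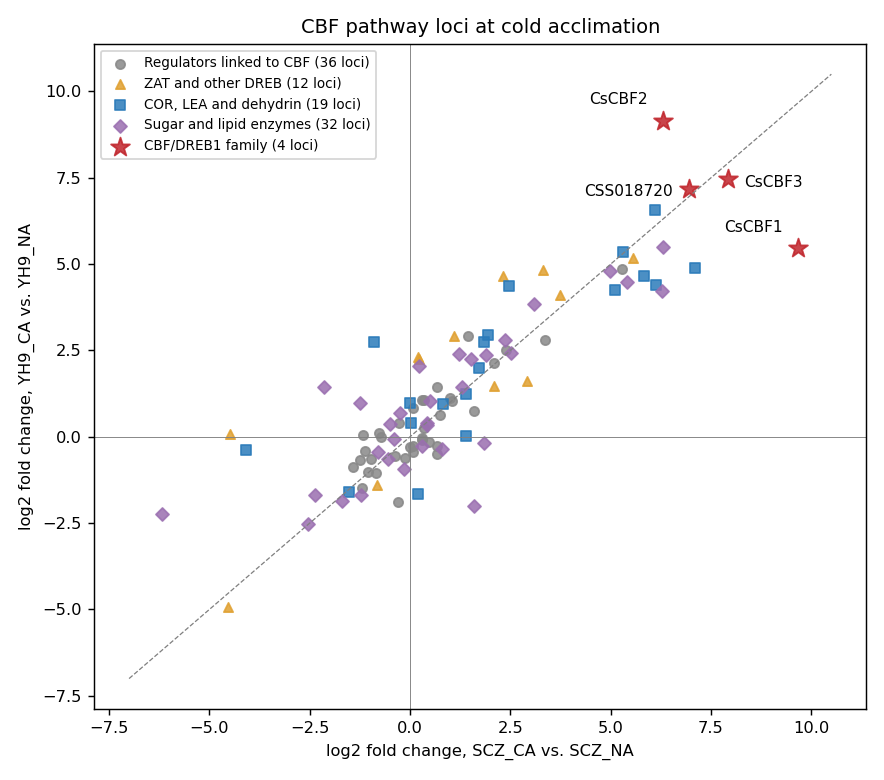
Log2 fold change in SCZ_CA vs. SCZ_NA (horizontal) and YH9_CA vs. YH9_NA (vertical) for the tested loci of the CBF family and of the regulator, ZAT and DREB, COR and enzyme lists, with equality as a dashed line. The 4 CBF loci sit between 5.45 and 9.66 on both axes.

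COR genes, targets of CBF in Arabidopsis, were followed first through the 3 that the study's primer list names. The study describes these 3 as putative, and their control by CBF was not tested here. CSS041102, a late embryogenesis abundant protein, was at 33.8, 30.9 and 46.0 FPKM in SCZ_NA and 2576, 2739 and 1704 FPKM in SCZ_CA. It was at 26.2, 38.6 and 24.4 FPKM in YH9_NA and 3043, 2906 and 2793 FPKM in YH9_CA. It rose in both cultivars, by 6.10 in SCZ (SE 0.39, adjusted p = 2.22e-07) and 6.58 in YH9 (SE 0.39, adjusted p = 4.76e-07) on the log2 scale. Its SCZ_CA vs. YH9_CA value was -0.12 (adjusted p = 0.790).

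At DA, CSS041102 was at 54.7, 88.1 and 136 FPKM in SCZ and 33.0, 37.2 and 39.9 FPKM in YH9. All SCZ_DA libraries lay above the SCZ_NA and YH9_DA libraries. SCZ_DA vs. SCZ_NA was called at 1.28 (adjusted p = 0.0369), in 18 of 29 alternatives, and was 0.86 without SCZ_DA replicate 3 (adjusted p = 0.198). The call was also lost without SCZ_DA replicate 2, SCZ_NA replicates 2 or 3, YH9_CA replicates 2 or 3, or any YH9_DA replicate, with the replicate block (1.25, adjusted p = 0.0605), and with only these groups fitted (1.31, adjusted p = 0.215).

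CSS015767, late embryogenesis abundant protein 3L-1, was at 80.3, 80.4 and 368 FPKM in SCZ_NA and 5326, 11936 and 8604 FPKM in SCZ_CA. It was at 91.6, 71.8 and 77.0 FPKM in YH9_NA and 1887, 2249 and 2083 FPKM in YH9_CA. It rose by 5.82 in SCZ (SE 0.66, adjusted p = 1.34e-05) and 4.65 in YH9 (SE 0.63, adjusted p = 8.55e-05) on the log2 scale. It was higher in SCZ_CA than in YH9_CA, at 2.28 (SE 0.57, adjusted p = 0.00616), without overlap. In that comparison 27.3% of all loci were called and 43.5% did not overlap.

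CSS039533, a cold-inducible protein, was at 1.26, 2.17 and 7.26 FPKM in SCZ_NA and 131, 247 and 259 FPKM in SCZ_CA. It was at 7.21, 1.11 and 1.58 FPKM in YH9_NA and 55.9, 81.7 and 82.1 FPKM in YH9_CA. It rose by 6.13 in SCZ (SE 0.83, adjusted p = 5.02e-05) and 4.39 in YH9 (SE 0.77, adjusted p = 0.000585) on the log2 scale. SCZ_CA vs. YH9_CA was 1.78 (adjusted p = 0.0560), with all SCZ_CA libraries above those of YH9_CA and no call.

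**Figure D5:**
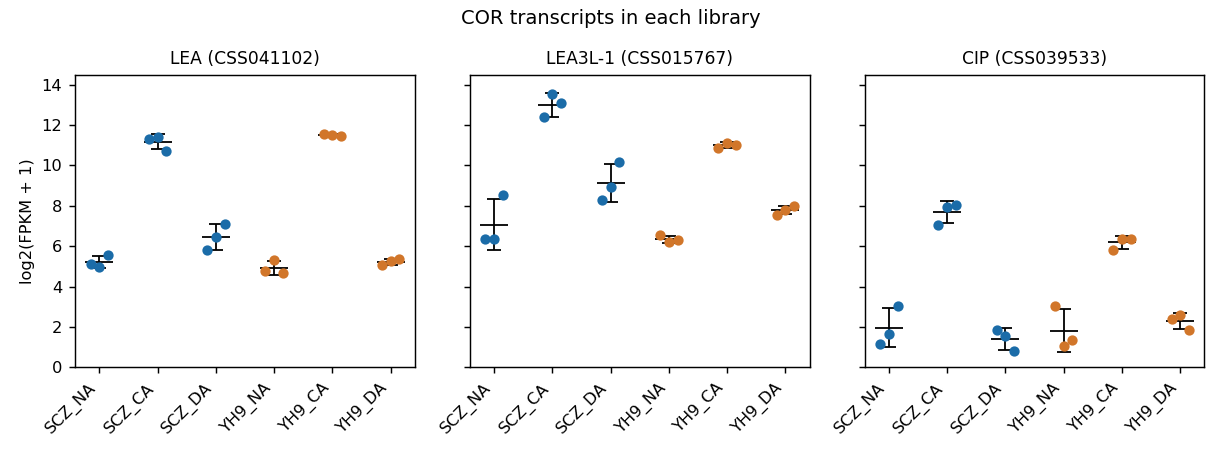
Level of the 3 COR genes CSS041102, CSS015767 and CSS039533 in each library, as log2(FPKM + 1), by group (SCZ blue, YH9 orange), with the mean ± SD of the log values (n = 3). All CA libraries lie above all NA and DA libraries in each panel, and SCZ_CA lies above YH9_CA for CSS015767 and CSS039533 but not for CSS041102.

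Over the whole COR, LEA and dehydrin list, 19 of 26 loci were tested. In SCZ 9 rose and 2 fell, and in YH9 10 rose and 1 fell, with medians of 1.72 and 2.74 on the log2 scale. These lists describe the pathway and were not tested as sets. The most abundant was CSS024403, a cold-inducible protein, at a mean of 15075 FPKM in SCZ_CA and 3811 FPKM in YH9_CA, with log2 fold changes of 5.12 and 4.25. In DA vs. NA, 3 loci of the list were called higher in SCZ and 0 in YH9. Over all loci, 3.03% were called in either direction in SCZ_DA vs. SCZ_NA and 0.376% in YH9_DA vs. YH9_NA.

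Dehydrin CSS006326, a membrane-protecting protein, was above NA in SCZ_DA, at 155, 660 and 4149 FPKM, with SCZ_DA vs. SCZ_NA at 6.18 (adjusted p = 0.00438). Without SCZ_DA replicate 3 it was 4.07 (adjusted p = 0.00904), and with only these groups fitted it was 6.20 and not called (adjusted p = 0.141). SCZ_DA vs. SCZ_CA was at -0.94 (adjusted p = 0.377), without a call. It was called lower in 1 of 29 alternatives, over which the value reached -3.04 and the adjusted p 0.00358. Replicate 3 was again the highest of the SCZ_DA libraries, as it was for CsCBF2, CsCBF3, CSS018720, CSS041102 and CSS015767. For CSS039533 it was the lowest, at 0.761 FPKM.

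Enzymes of sugar and lipid metabolism include CBF targets in Arabidopsis. Of 9 β-amylases, which break down starch to maltose, 3 rose and 2 fell in SCZ, and 4 rose and 1 fell in YH9. Over all loci, 15% were called higher and 19.1% lower in SCZ, and 11.7% and 14.2% in YH9. Chloroplast β-amylase 3 locus CSS003876 rose by 6.30 in SCZ and 5.48 in YH9, and β-amylase 5 locus CSS024024 by 4.98 and 4.81 on the log2 scale. Of 11 tested fatty acid desaturases, which raise membrane unsaturation, 4 rose and 0 fell in each. CSS026415 was at 2.52 in SCZ and 2.43 in YH9, and the omega-3 desaturase CSS038298 at 1.9 and 2.37.

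Galactinol and raffinose synthases make the raffinose sugars that accumulate in cold. Of 12 tested, 2 rose and 2 fell in SCZ, and 3 rose and 1 fell in YH9, so that the SCZ counts lay near the shares over all loci. Raffinose synthase 1 locus CSS030000 was at -2.54 in SCZ and -2.53 in YH9. Raffinose synthase 2 locus CSS036395 was called at 1.3 in SCZ and 1.44 in YH9, and was at 0.94 in SCZ without SCZ_CA replicate 1 (adjusted p = 0.141) and at 1.08 in YH9 without YH9_NA replicate 1 (adjusted p = 0.103). GAPDH loci, the gene family used as the reference in the study's quantitative PCR, summed to 1266 to 1683 FPKM in SCZ_NA and 781 to 954 FPKM in SCZ_CA, against 993 to 1063 FPKM in YH9_NA and 677 to 856 FPKM in YH9_CA. Counted by locus, the list went the other way: of 14 tested, 4 were called higher and 1 lower in SCZ (median log2 fold change 0.33), and 1 higher and 1 lower in YH9 (median 0.60). Without SCZ_CA replicate 2, 3 of the SCZ calls, CSS013749 (0.42), CSS025274 (adjusted p = 0.241) and CSS033482 (0.49), were lost.

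The loci whose pattern over the 18 libraries was most like that of each CBF gene were taken by the root mean square (RMS) difference of centred log2(FPKM + 1), among 20887 described loci. These are descriptions, over libraries that share cultivar and treatment. Nearest to CsCBF1 was CSS000265, a putative F-box protein, at an RMS difference of 0.228, with means of 36.2 FPKM in SCZ_CA and 5.83 FPKM in YH9_CA and at most 0.329 FPKM in warm groups. The next was CSS041179, a binding partner of ACD11, at 0.555.

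Nearest to CsCBF2 was the COR gene CSS041102, at an RMS difference of 0.749, followed by the embryonic protein DC-8 locus CSS032854 at 0.803. DC-8 was at means of 80.3 FPKM in SCZ_CA and 129 FPKM in YH9_CA and under 0.5 FPKM in every warm group. A pair of sugar transport protein 13 loci, CSS007340 and CSS013998, were also among the nearest 5, with YH9_CA means of 142 and 165 FPKM against 48.7 and 51.6 FPKM in SCZ_CA.

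Nearest to CsCBF3 was a LOV domain protein, CSS033699, at an RMS difference of 0.741, followed by CONSTANS-LIKE 9 locus CSS004624 at 0.863 and an AP2/ERF protein, CSS017941, at 0.869. The last was at a mean of 14.8 FPKM in SCZ_DA and 1.56 FPKM in YH9_DA, and CsCBF3 was at 9.73 and 0.427 FPKM there. These loci were picked as the nearest of all candidates, so their distances cannot be set against those between the CBF genes. The measure also depends on the size of a change and not only on its pattern. The RMS difference was 1.41 between CsCBF2 and CsCBF3, 1.53 between CsCBF1 and CsCBF3, and 2.16 between CsCBF1 and CsCBF2.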

How the data were processed

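RNA-seq was made on 18 libraries of tea seedlings. The authors deposited 1 table of 41021 loci with FPKM and estimated counts for each library. Per the labels, the submitters' processing notes name cutadapt 1.9, HISAT2 2.2.1 and StringTie 2.1.6, along with UMI-tools, DESeq2 and edgeR, without their roles. The genome build is uncertain in these notes, and coordinates were not used. The deposited counts are estimates: 33.3% to 37.2% of counts up to 20 were multiples of 4. Count tests treat each count as independent, so counting error may be understated. Dividing the counts by 4 was 1 alternative. Replicates are labelled as biological, with no note on separate cultures, and 0 pairs of libraries held identical values.

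Loci with at least 1 FPKM in at least 3 libraries (29019) were fitted in edgeR 4.0.16 (R 4.3.3) with TMM scaling, 1 mean per group over 18 libraries and quasi-likelihood tests, with Benjamini-Hochberg adjustment over all loci. The SE is the log2 fold change divided by the root of F, and 95% intervals use 12 residual degrees of freedom. Tables were computed in Python 3.11.15. The code was tested on simulated data. Alternatives were other scalings and filters, only the groups compared, robust fitting, counts divided by 4, a replicate block, limma 3.58.1 on log2(FPKM + 1) and log2(FPKM + 0.1), DESeq2 1.42.0, and leaving out each library. Gene names are the table's own descriptions.

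The members and lists were chosen with earlier results of these data known. A list for MYB15 matched 0 loci, and the patterns of the DREB and PIF lists were corrected after the table was seen. Named were the 3 members, other filtered CBF loci, the 3 COR genes of the primer list, up to 4 called members of each list with the highest group mean, and the 5 loci most like each member. Primer sequences came from the study's supplementary primer list.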

Additional observations from a re-analysis of the deposited data

Results flagged for a closer look

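The LHY locus CSS036792, a morning gene of the circadian clock, changed differently in the cultivars between cold and de-acclimation. Its mean level was 365 FPKM in SCZ_NA, 272 FPKM in SCZ_CA and 343 FPKM in SCZ_DA, against 411, 112 and 511 FPKM in the corresponding YH9 groups. SCZ minus YH9 in DA vs. CA was -1.88 on the log2 scale (SE 0.41, adjusted p = 0.0340 with edgeR, where 1.72% of loci were called). Of 10 tested clock loci, 1 was called lower in this interaction, which was CSS036792, and 1 was called higher.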

How the results depend on the processing

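All 12 calls of the 3 CBF genes in CA vs. NA and DA vs. CA kept their direction and their call under each of the 29 alternatives, and so did the 4 CBF loci called higher in CA vs. NA. Elsewhere values moved across the threshold, and their causes were not tested. The CsCBF1 call in SCZ_CA vs. YH9_CA was lost with DESeq2 (3.20) and with 4 single libraries left out (range 2.90 to 3.54). Leaving out single libraries, the fitted CsCBF1 values ranged from 8.97 to 14.03 in SCZ_CA vs. SCZ_NA, -14.02 to -9.51 in SCZ_DA vs. SCZ_CA and -10.80 to -6.38 in YH9_DA vs. YH9_CA. The extremes came without SCZ_NA replicate 1, SCZ_DA replicate 3 or YH9_DA replicate 1, which left the warm group at 0, and set no bound. Over all 29 alternatives the smallest CsCBF1 change was 4.61 in SCZ_CA vs. SCZ_NA and -4.62 in SCZ_DA vs. SCZ_CA. In YH9 the smallest was 2.01 in CA vs. NA and -2.07 in DA vs. CA, so that the size depended on the method.

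Signs turned in interactions that were not called. For CsCBF1 in DA vs. CA the value was 0.73 without YH9_DA replicate 1 (range -7.14 to 0.73). For CsCBF3 in CA vs. NA it was -0.24 without SCZ_CA replicate 1 and -0.08 without SCZ_NA replicate 2 (range -0.24 to 1.61). Calls were gained for the CsCBF1 interaction in CA vs. NA with limma at 2.59 (pseudocount 1) and 3.18 (0.1), and in DA vs. CA at -2.55 and -2.84. Those of CsCBF2 were gained with DESeq2 at -2.83 in CA vs. NA and 2.56 in DA vs. CA, with ranges over single libraries of -3.29 to -2.49 (called without SCZ_DA replicate 3, adjusted p = 0.04995) and 1.59 to 3.04. CsCBF2 in SCZ_CA vs. YH9_CA was called with limma (-1.66 at either pseudocount), with only the groups compared (-1.38), and without SCZ_DA replicate 1 or 3, with a range of -1.69 to -1.16. CsCBF3 in SCZ_DA vs. SCZ_NA was called with DESeq2 (3.84), counts divided by 4 (3.91), library totals only (4.01), limma at 0.1 (3.44) and RLE scaling (3.88), with a range of 2.08 to 5.02. The ranges were 0.20 to 1.65 for CsCBF2 in SCZ_DA vs. YH9_DA, 1.10 to 1.9 in SCZ_NA vs. YH9_NA, and 2.85 to 5.09 for CsCBF3 in SCZ_DA vs. YH9_DA. Both CsCBF2 comparisons were called with 1 library left out, SCZ_DA replicate 1 and SCZ_NA replicate 2 in turn.

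Replicate numbers did not pair the samples: deviations of same-numbered libraries correlated at -0.149 to 0.310, with 6 of 45 pairs over 0.1. The replicate block changed no call of the 3 genes, with CsCBF1 at 3.26 in SCZ_CA vs. YH9_CA (adjusted p = 0.0229) and CsCBF3 at 3.98 in SCZ_DA vs. SCZ_NA (adjusted p = 0.0550), and 5 of 18 libraries matched their own number best. It ended the calls of CSS041102 in SCZ_DA vs. SCZ_NA (1.25, adjusted p = 0.0605) and of CSS047705 in SCZ_CA vs. SCZ_NA (0.998, under 2-fold). Calls over all loci moved from 9891 to 9490 in SCZ_CA vs. SCZ_NA and from 879 to 694 in SCZ_DA vs. SCZ_NA with it. In YH9_DA vs. YH9_NA 109 loci were called, 435 with DESeq2 and 398 with limma at pseudocount 1, and in the CA vs. NA interaction 731, 2331 and 1656. Library totals moved the median of all loci in SCZ_CA vs. SCZ_NA from -0.06 to -0.21. With 3 libraries a group and warm CsCBF1 counts at 0 to 10, its warm levels were not distinguishable at this depth.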
